A study of Homo sapiens with 9 samples.

Results

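The alpha-arrestin genes ARRDC1, ARRDC2, ARRDC3, ARRDC4 and TXNIP were examined together with MLXIP and the ubiquitin ligase genes NEDD4, NEDD4L, ITCH and WWP1. These 10 genes were taken by name from the 63187 genes of the count table. The family was chosen by the log2 fold changes of ARRDC3, which was known from these libraries to be higher after both treatments, so its differences between conditions are described below without a test. RNA was measured by poly-A RNA sequencing in BEAS-2B, an immortalized line of human bronchial epithelial cells that served throughout as a model of the bronchial epithelium. Control cells were left untreated. PG/VG cells received condensed aerosol of the carrier, which is propylene glycol with vegetable glycerine, and EC cells that of an e-cigarette liquid with Virginia tobacco flavor and 18 mg/ml nicotine. Both treatments lasted 24 h at 2% (v/v). Each condition had 3 libraries from separate biological replicates, numbered 2, 3 and 4, and the labels give the same number as the batch, so that every batch holds a library of each condition. The nicotine, the flavor and the carrier are all present in EC, whereas PG/VG holds the carrier alone.

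Alpha-arrestins are adaptor proteins. They carry short proline-rich motifs that are held by the WW domains of NEDD4-family ubiquitin ligases, and in this way they bring the ligase to receptors and transporters at the cell surface, which are then ubiquitinated and taken up or sorted. TXNIP is the member of the family that also binds thioredoxin, and it restrains glucose uptake. TXNIP and ARRDC4 are classic target genes of MondoA, the glucose-sensing transcription factor encoded by MLXIP, which works with its partner MLX. ARRDC3 is known as an adaptor for integrin beta-4, and ARRDC1 for the budding of small vesicles from the plasma membrane with the help of ESCRT proteins.

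The promoters of ARRDC3, which had the largest difference between conditions in the family, and of the MondoA targets TXNIP and ARRDC4 are shown first. The sequences are those of RefSeq on GRCh38.p14, limited to the 250 bases before the start of the transcript and written 5′ to 3′ on the strand of the gene. ARRDC3 lies on chromosome 5 from 91368631 to 91383317 on the minus strand, and its window is chr5:91383318-91383567. TXNIP lies on chromosome 1 from 145992435 to 145996579 on the minus strand, with the window chr1:145996580-145996829. ARRDC4 lies on chromosome 15 from 97960703 to 97973833 on the plus strand, with the window chr15:97960453-97960702. RefSeq lists 2 starts for ARRDC2, ARRDC3 and TXNIP, and the start nearest to that of the GENCODE gene was used. Capitals mark matches to any of the motifs searched, and a match on the opposite strand appears as its reverse complement.
ARRDC3: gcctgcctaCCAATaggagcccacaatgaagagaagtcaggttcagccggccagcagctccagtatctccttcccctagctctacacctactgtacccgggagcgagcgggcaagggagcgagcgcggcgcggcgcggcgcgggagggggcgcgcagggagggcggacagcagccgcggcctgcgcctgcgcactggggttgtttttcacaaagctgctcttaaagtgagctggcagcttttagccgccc
TXNIP: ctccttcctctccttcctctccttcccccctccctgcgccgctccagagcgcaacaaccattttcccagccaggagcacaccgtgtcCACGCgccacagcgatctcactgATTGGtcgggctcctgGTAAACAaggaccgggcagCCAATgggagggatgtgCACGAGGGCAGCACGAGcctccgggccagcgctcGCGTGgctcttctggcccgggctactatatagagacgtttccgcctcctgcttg
ARRDC4: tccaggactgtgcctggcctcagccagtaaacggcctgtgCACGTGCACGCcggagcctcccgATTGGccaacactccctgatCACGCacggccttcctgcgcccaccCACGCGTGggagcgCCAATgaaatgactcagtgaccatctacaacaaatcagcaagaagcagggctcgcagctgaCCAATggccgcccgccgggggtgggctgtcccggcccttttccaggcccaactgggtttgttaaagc

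The motifs were the E-box CACGTG, a pair of E-box-like elements CACGNG with 5 bases between them, the FOXO element TGTTTAC, the xenobiotic response element core GCGTG, the antioxidant response element core (TGAC and GC with any 3 bases between them) and the CCAAT box CCAAT, each on both strands. The TXNIP window held the paired E-box-like element from 88 to 72 bases before the start, which is a form of the carbohydrate response elements to which MondoA and MLX bind. This pair was found in 16 of 35116 RefSeq promoter windows of the same length (0.0456%). Pairs with other sequences or another spacing were not searched. TXNIP also had a FOXO match from 124 to 118 bases before the start, a motif present in 2.98% of windows, as well as 2 xenobiotic response element cores and 2 CCAAT boxes. In ARRDC4 there was an E-box from 210 to 205 bases before the start (6.34% of windows), directly followed by a xenobiotic response element core. The ARRDC4 window held 4 such cores in all, of which those at 142 to 138 and 139 to 135 overlap, and 3 CCAAT boxes. The ARRDC3 window had a CCAAT box from 241 to 237 bases before the start and no match to the other motifs. ARRDC2 held 2 xenobiotic response element cores and an antioxidant response element core, and ARRDC1 a CCAAT box. Xenobiotic response element cores were found in 32.2% of windows, antioxidant response element cores in 10.9% and CCAAT boxes in 32%, so these matches are common.

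**Figure D1:**
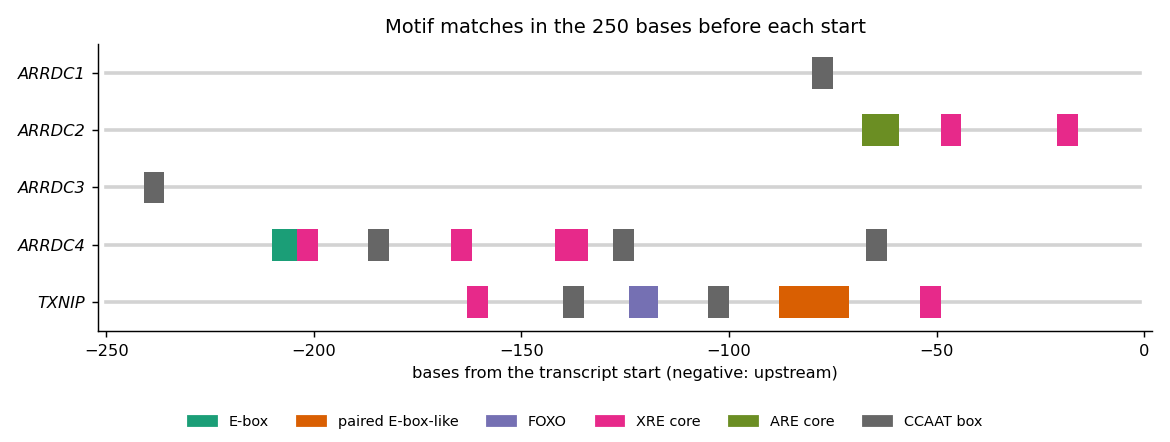
Matches to the 6 motifs in the 250 bases before the transcript start of the 5 alpha-arrestin genes, with the distance from the start in bases on the horizontal axis and each motif in its own color. The paired E-box-like element stands in TXNIP alone among the 5, and ARRDC3 has a single CCAAT box at its far end.

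Sequencing depth, as the sum of counts over genes, was 16168260 to 24917838 per library. After a filter on low counts 16030 genes were tested, all 10 of the genes described here among them. Batch 4 stood apart from batches 2 and 3 in every condition, with 6505 of the genes tested (40.6%) past the threshold between them (adjusted p under 0.05, edgeR). The keratins of simple epithelium were present, with KRT8 between 752 and 1174 CPM and KRT18 between 301 and 628 CPM, while KRT5 and TP63 of basal cells were at or near 0, CDH1 was at 0.169 to 1.59 CPM and EPCAM at 0.681 to 1.93 CPM. VIM (822 to 1114 CPM), CDH2 (247 to 375 CPM) and FN1 (2360 to 5545 CPM) were high. Of the other mesenchymal markers, COL1A1 was at 51.5 to 107 CPM and COL1A2 at 0.397 CPM at most. The endothelial marker CDH5 was at 3.73 to 7.15 CPM, and PECAM1 and VWF were at 0.595 and 0.602 CPM at most. The summed epithelial markers lay at 1266 to 1807 CPM in the control, 1237 to 1750 CPM in PG/VG and 1072 to 1497 CPM in EC, and the summed mesenchymal markers at 5026 to 6971, 4629 to 6671 and 3531 to 5401 CPM. The 3 leukocyte markers summed to 0.386 CPM at most, with CD3E at 0 in all libraries. Whether the lower marker sums in EC have a part in the values below was not tested.

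TXNIP was by far the most abundant of the 10 transcripts per length, and ARRDC3 the least abundant in untreated cells. Levels between genes were compared as RPKM, which divides the read count by the depth and by the length of the exons. In the control the order was TXNIP (40.2 RPKM), the ubiquitin ligase gene NEDD4 (20.9), ARRDC1 (8.17), NEDD4L (7.79), WWP1 (6.18), ITCH (5.94), MLXIP (5.82), ARRDC4 (4.48), ARRDC2 (2.25) and ARRDC3 (1.55). The replicates of neighbours in this order overlapped from ARRDC1 down to MLXIP, and did not overlap elsewhere. The median of all genes tested was 3.82 RPKM. TXNIP stood at the 93.3 percentile of genes tested and ARRDC3 at the 34.9 percentile. The exon length is the union of all annotated exons, which is 34097 bases for NEDD4L and 13868 bases for MLXIP, and an RPKM over so long a union is low for its count. In EC, ARRDC3 reached 5.19 ± 0.192 RPKM and stood above ARRDC2 (2.59 ± 0.0688) and ARRDC4 (4.31 ± 0.246; SD, n = 3), with no overlap of the replicates. In PG/VG it lay between the same genes, at 3.76 ± 0.475 RPKM, above ARRDC2 (2.30 ± 0.149) and below ARRDC4 (4.69 ± 0.326).

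ARRDC3 (ENSG00000113369) had the largest difference between conditions among the 10 genes. In control batches 2, 3 and 4 it had 8.58, 7.74 and 6.92 CPM, where CPM is the count scaled to the depth of the library with TMM. In PG/VG it had 19.1, 16.2 and 20.9 CPM, and EC libraries had 25.8, 26.9 and 24.9 CPM. The 3 groups did not overlap, with each PG/VG library above all controls and each EC library above all PG/VG libraries. Of all genes tested, 9.83% had EC entirely above the control, 7.79% PG/VG entirely above the control and 4.54% EC entirely above PG/VG. The counts behind these values were 123 to 135 per library in the control, 296 to 487 in PG/VG and 503 to 650 in EC. Means were 7.75 ± 0.827, 18.7 ± 2.37 and 25.9 ± 0.956 CPM (SD, n = 3 each). The fitted log2 fold change (LFC) was 1.74 in EC vs. control (SE 0.12, 95% interval 1.50 to 1.99), a 3.35-fold difference, and 1.28 in PG/VG vs. control (SE 0.12, 1.03 to 1.53), a 2.43-fold difference. EC stood above PG/VG by an LFC of 0.47 (SE 0.10, 0.25 to 0.68). Within batches 2, 3 and 4 the log2 difference of EC from the control was 1.59, 1.79 and 1.85, that of PG/VG from the control was 1.15, 1.06 and 1.59, and that of EC from PG/VG was 0.43, 0.73 and 0.26. Both comparisons with the control use the same 3 control libraries. Because these differences picked the gene, its LFC may be too large, and the intervals and the rank below describe the fit and are not a test. By fitted LFC, which was not shrunken for low counts, ARRDC3 ranked 65 of 16030 genes for EC and 70 for PG/VG. Of the 64 genes above it for EC, 63 had a lower mean CPM over the 9 libraries than ARRDC3, as did all 69 for PG/VG. Fits without any single library gave LFC values from 1.64 to 1.81 for EC, from 1.14 to 1.39 for PG/VG and from 0.35 to 0.60 for EC relative to PG/VG. In a culture read in bulk, more transcript in every cell and more cells that express the gene cannot be told apart.

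Other genes overlap 2.91% of the exon length of ARRDC3, with the largest overlap from ARRDC3-AS1 (ENSG00000281357) on the opposite strand. The counting left out reads that fall on more than 1 gene, but its strand setting is not given in the sources used here. Whether reads in this stretch were left out or assigned by strand is therefore not known. ARRDC3-AS1 had 18 to 74 counts per library and a level of 1.65 ± 0.587 CPM in the control, 2.76 ± 0.810 in PG/VG and 2.65 ± 0.320 in EC (SD, n = 3 each). Its share in the values of ARRDC3 was not tested, and its level was below that of ARRDC3 in each condition.

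**Figure D2:**
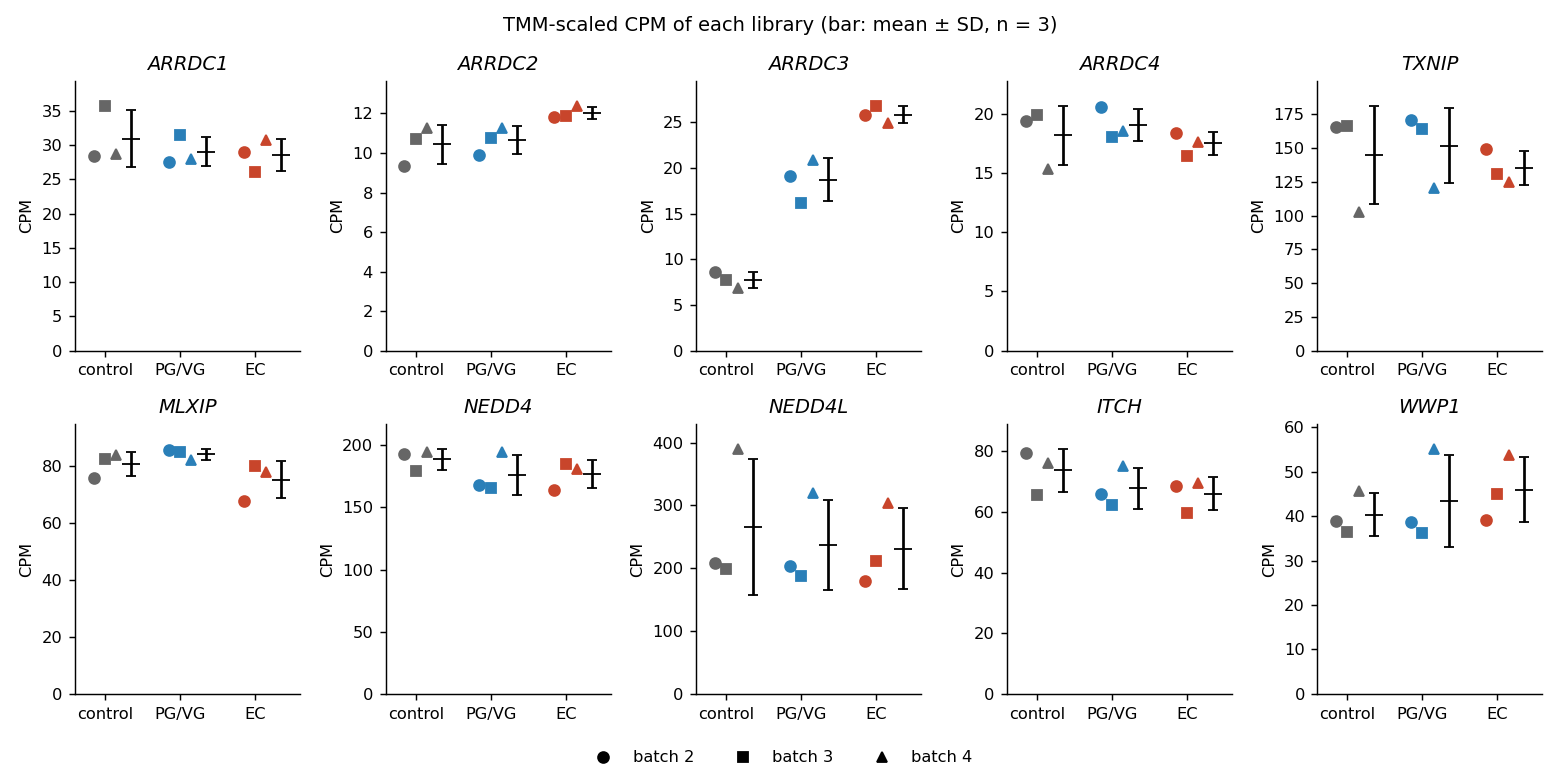
TMM-scaled CPM of the 10 genes in each of the 9 libraries, by condition, with the marker shape giving the batch and the bar the mean ± SD of 3 replicates; each panel has its own axis from 0. ARRDC3 goes from 6.92 to 8.58 CPM in the control to 24.9 to 26.9 CPM in EC, while TXNIP and NEDD4L separate by batch 4.

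For the other alpha-arrestins, no difference between conditions passed the threshold. TXNIP (ENSG00000265972), the thioredoxin-binding member, had 166, 166 and 103 CPM in the control, 171, 164 and 120 CPM in PG/VG and 149, 131 and 125 CPM in EC. The ranges of the 3 groups overlapped, and the lowest value of each group was that of batch 4. Its LFC was −0.072 in EC vs. control (95% interval −0.25 to 0.11, adjusted p = 0.649) and 0.079 in PG/VG vs. control (−0.10 to 0.26, adjusted p = 0.668). In EC vs. PG/VG it was −0.15 (−0.33 to 0.030, adjusted p = 0.496). An increase of TXNIP of the size seen for ARRDC3 lies outside both intervals against the control.

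ARRDC4 (ENSG00000140450), the other MondoA target of the family, had 19.4, 19.9 and 15.3 CPM in the control, 20.6, 18.1 and 18.6 CPM in PG/VG and 18.4, 16.4 and 17.7 CPM in EC. These groups overlapped as well, with the control of batch 4 the lowest of all 9 libraries. The LFC was −0.053 in EC vs. control (95% interval −0.27 to 0.16, adjusted p = 0.797) and 0.073 in PG/VG vs. control (−0.14 to 0.29, adjusted p = 0.756). EC was below PG/VG in each of the 3 batches, with an LFC of −0.13 that was not past the threshold (−0.34 to 0.085, adjusted p = 0.659).

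ARRDC2 (ENSG00000105643, chromosome 19 from 18001132 to 18014102) is a less studied member of the family. It had 9.34, 10.7 and 11.3 CPM in the control, 9.91, 10.8 and 11.3 CPM in PG/VG and 11.8, 11.9 and 12.4 CPM in EC. All EC libraries lay above all libraries of the other conditions, and control and PG/VG overlapped. The LFC of 0.21 in EC vs. control was not past the threshold (SE 0.11, 95% interval −0.026 to 0.44, adjusted p = 0.243), and neither was the LFC of 0.18 in EC vs. PG/VG (−0.048 to 0.40, adjusted p = 0.529). As given for ARRDC3, 9.83% of all genes tested had EC entirely above the control and 4.54% entirely above PG/VG. In PG/VG vs. control the LFC was 0.030 (−0.21 to 0.27, adjusted p = 0.918). The counts of ARRDC2 were 147 to 298 per library, and other genes overlap 9.53% of its exons by length.

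ARRDC1 (ENSG00000197070, chromosome 9 from 137605685 to 137615360), the member that takes part in vesicle budding, had 28.4, 35.8 and 28.7 CPM in the control, 27.6, 31.5 and 28.0 CPM in PG/VG and 29.0, 26.1 and 30.7 CPM in EC. The control of batch 3 was the highest library, and the groups overlapped. The LFC was −0.11 in EC vs. control (95% interval −0.31 to 0.094, adjusted p = 0.515) and −0.092 in PG/VG vs. control (−0.30 to 0.11, adjusted p = 0.657). EC and PG/VG differed by an LFC of −0.018 (−0.22 to 0.18, adjusted p = 0.964).

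MLXIP (ENSG00000175727, chromosome 12 from 122078756 to 122147344), which encodes MondoA, had 75.8, 82.4 and 83.8 CPM in the control, 85.5, 84.8 and 81.9 CPM in PG/VG and 67.6, 79.9 and 78.0 CPM in EC. Each EC library lay below all PG/VG libraries, while the control overlapped with both. The difference between EC and PG/VG was an LFC of −0.17 (SE 0.074, 95% interval −0.32 to −0.013), lower in 3 of 3 batches, which did not pass the threshold after adjustment over all genes (adjusted p = 0.338). Among all genes tested, 3.37% had EC libraries entirely below PG/VG. Against the control the LFC of MLXIP was −0.10 in EC (−0.26 to 0.051, adjusted p = 0.399) and 0.062 in PG/VG (−0.092 to 0.22, adjusted p = 0.697). MondoA is controlled largely through its entry into the nucleus, which transcript levels do not report.

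The ligase genes lay above ARRDC2, ARRDC3 and ARRDC4 per length in the control, and no treatment difference of theirs passed the threshold. NEDD4 (ENSG00000069869, chromosome 15 from 55826922 to 55993660), the founding ligase of the family, had 193, 179 and 195 CPM in the control, 168, 165 and 195 CPM in PG/VG and 164, 185 and 181 CPM in EC. Its groups overlapped, with an LFC of −0.094 in EC vs. control (95% interval −0.24 to 0.054, adjusted p = 0.430) and −0.10 in PG/VG vs. control (−0.25 to 0.046, adjusted p = 0.453). ITCH (ENSG00000078747, chromosome 20 from 34363235 to 34511773), a ligase best known from immune regulation, had 79.3, 65.6 and 76.1 CPM in the control, 66.0, 62.1 and 75.1 CPM in PG/VG and 68.7, 59.8 and 69.6 CPM in EC. It was lower than the control of the same batch in all 6 treated libraries, although the groups overlapped. ARRDC2 was higher than the control of the same batch in all 6. The share of all genes with a single direction throughout was not counted. The LFC of ITCH was −0.16 in EC (SE 0.074, −0.31 to −0.0050, adjusted p = 0.168) and −0.12 in PG/VG (−0.27 to 0.032, adjusted p = 0.379). Of its exon length, 23.9% overlaps other genes, with the largest overlap from ENSG00000289720 on the same strand. The counting left out reads that fall on more than 1 gene.

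WWP1 (ENSG00000123124, on chromosome 8), a ligase that binds several alpha-arrestins, had 38.9, 36.5 and 45.7 CPM in the control, 38.7, 36.2 and 55.2 CPM in PG/VG and 39.2, 44.9 and 53.8 CPM in EC. The batch 4 library was the highest of each group. The LFC in EC vs. control was 0.19 (SE 0.086, 95% interval 0.0074 to 0.36), not past the threshold after adjustment (adjusted p = 0.163), and in PG/VG vs. control it was 0.092 (−0.087 to 0.27, adjusted p = 0.600). The log2 difference of EC from the control was 0.013 in batch 2, 0.30 in batch 3 and 0.24 in batch 4. Without EC replicate 3 the LFC in EC was 0.10 (adjusted p = 0.555). NEDD4L (ENSG00000049759, chromosome 18 from 58044226 to 58401540), known for the turnover of the epithelial sodium channel, had 208, 198 and 390 CPM in the control, 203, 187 and 320 CPM in PG/VG and 180, 211 and 303 CPM in EC. Here too the batch 4 libraries were the highest in every condition, and the conditions overlapped. The LFC of NEDD4L was −0.16 in EC (−0.32 to 0.00032, adjusted p = 0.183) and −0.14 in PG/VG (−0.30 to 0.026, adjusted p = 0.343). Without EC replicate 3, in which NEDD4L was higher than the control of its batch, the LFC in EC was −0.28 and passed the threshold (adjusted p = 0.0351).

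Counted together, 0 of the 9 genes besides ARRDC3 passed the threshold in EC vs. control in edgeR, where 13.5% of all genes tested did. An unadjusted p under 0.05 was reached by 2 of the 9, ITCH and WWP1, and by 27.4% of all genes. DESeq2 with the batch in the model also gave 0 of 9, against 10.7% of all genes, and ComBat-Seq followed by DESeq2 gave 0, against 19.2%. In PG/VG vs. control, 0 of 9 passed in edgeR, against 4.54% of all genes, and 0 had an unadjusted p under 0.05, against 20.1%. Both other routes gave 0 of 9 there too, against 4.50% of all genes in DESeq2 and 10.4% in ComBat-Seq with DESeq2. In EC vs. PG/VG, 0 of 9 passed in edgeR, against 0.855% of all genes (0.555% higher and 0.299% lower in EC), and 1, MLXIP, had an unadjusted p under 0.05, against 12.9%. Both other routes gave 0 of 9 in this comparison, against 1.04% and 3.86% of all genes. Over the 9 genes the median LFC was −0.094 for EC, 0.030 for PG/VG and −0.026 for EC relative to PG/VG, beside 0.0078, 0.013 and 0.0024 over all genes tested. With library size as the only scaling, the median for EC relative to PG/VG turned to 0.0078.

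**Figure D3:**
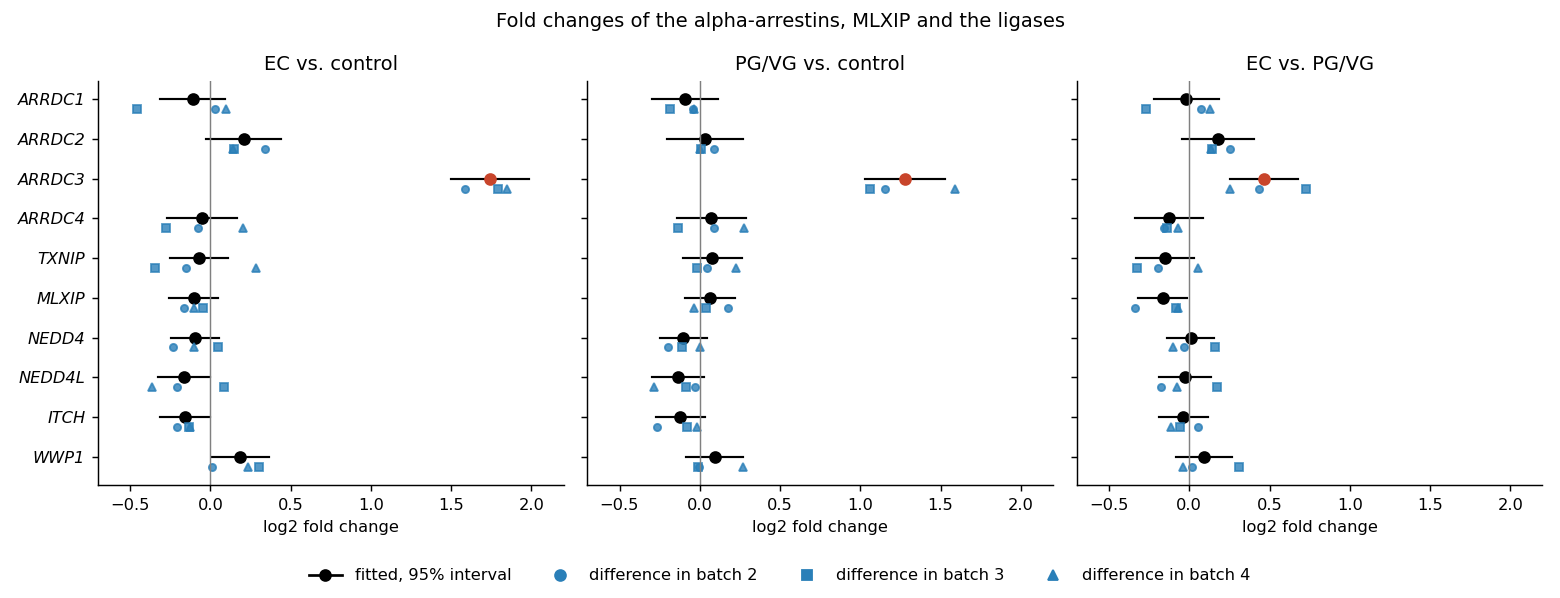
Log2 fold changes of the 10 genes in the 3 comparisons, with the fitted value and its 95% interval (circle and line; red for ARRDC3, which was described without a test) and the difference within each batch in blue below it. ARRDC3 stands at 1.74, 1.28 and 0.47, and the fitted values of the other 9 genes lie between −0.17 and 0.21.

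Levels of NEDD4L, WWP1 and TXNIP differed between batch 4 and the other batches. Between batch 4 and the mean of batches 2 and 3 within conditions, 2 of the 10 genes were higher and 1 was lower (edgeR, adjusted p under 0.05). Of all genes tested, 20.1% were higher and 20.5% lower, 40.6% together, so these calls are at the level of the background in a comparison that was known to separate when the genes were chosen. NEDD4L was higher in batch 4 by an LFC of 0.76 (SE 0.066, adjusted p = 3.20e-09), with 0.94 in the control, 0.71 in PG/VG and 0.64 in EC. WWP1 was higher by 0.40 (SE 0.073, adjusted p = 0.000106), with 0.28, 0.56 and 0.36. TXNIP was lower, with an LFC of −0.44 (SE 0.077, adjusted p = 9.47e-05), and its difference was −0.69 in the control, −0.48 in PG/VG and −0.16 in EC. For these 3 genes the batch 4 libraries did not overlap with the other 6. ARRDC3 differed between batches by an LFC of 0.0092 (95% interval −0.19 to 0.21, adjusted p = 0.951), far below its differences between conditions. ITCH had an LFC of 0.14 (adjusted p = 0.0768) and NEDD4 of 0.12 (adjusted p = 0.141), and the remaining 4 genes lay between −0.12 and 0.12.

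**Figure D4:**
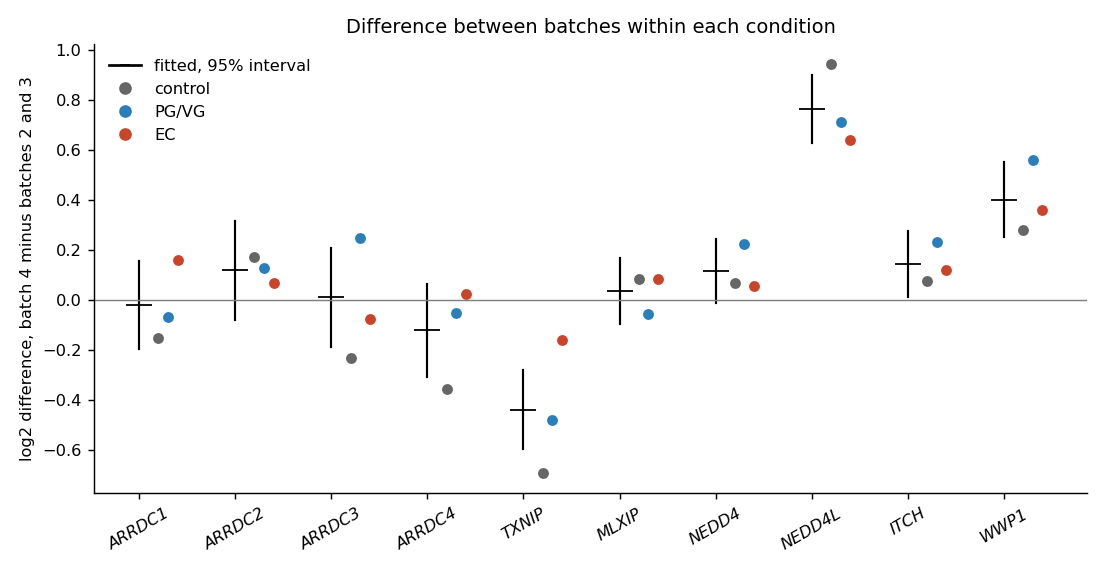
Log2 difference of batch 4 from the mean of batches 2 and 3 for the 10 genes, within each condition (colored points) and fitted over all conditions with its 95% interval (line). NEDD4L and WWP1 lie above 0 and TXNIP below 0 in every condition, and ARRDC3 has points on both sides of 0.

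Genes that work with the alpha-arrestins were examined in 7 lists of 55 genes, of which 50 passed the filter on low counts. In EC vs. control 8 of the 50 were higher and 1 of the 50 was lower, while of all genes tested 8.07% were higher and 5.38% lower. In PG/VG vs. control 3 of the 50 were higher and 1 of the 50 was lower, while of all genes tested 2.63% were higher and 1.90% lower. These shares are the background for the counts of each list below. In EC vs. PG/VG 0 of the 50 passed the threshold in edgeR. An unadjusted p under 0.05 was reached by 13 of the 50 and by 12.9% of all genes. DESeq2 with the batch gave 0 of the 50, where 1.04% of all genes were called. ComBat-Seq with DESeq2 gave 2 of the 50, SMURF2 and CCNG2, where 3.86% of all genes were called. Every one of the calls against the control in edgeR rests on the batch term and was lost without it.

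The beta-arrestin ARRB1, which uncouples activated receptors from their G proteins, was the gene called among 5 tested with an arrestin fold outside the family. It was at 13.6 ± 3.12 CPM in the control, 18.1 ± 5.08 in PG/VG and 19.0 ± 1.65 in EC (SD, n = 3 each). The LFC was 0.50 in EC vs. control (SE 0.11, adjusted p = 0.00422) and 0.40 in PG/VG vs. control (SE 0.11, adjusted p = 0.0405), higher in 3 of 3 batches in both. The second of these calls was lost in 5 of 9 fits without a single library (without control replicate 2, 3 or 4 or PG/VG replicate 2 or 4, adjusted p 0.0776 to 0.277) and in DESeq2 with the batch (adjusted p = 0.0603), and 25.9% of the exon length of ARRB1 overlaps other genes. Over the 5 genes the median LFC was −0.020 in EC, or 0.040 with library size as the only scaling, and 0.017 in PG/VG.

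Among the 7 other NEDD4-family ligases and adaptors, SMURF2, which limits TGF-beta signaling, fell in EC from 198.8 ± 6.11 to 146 ± 7.64 CPM (LFC −0.44, SE 0.070, adjusted p = 0.000192), lower in 3 of 3 batches. In PG/VG it was at 169.9 ± 8.87 CPM, an LFC of −0.23 that was not past the threshold (adjusted p = 0.0625) and that passed it in 6 of 18 alternatives. HECW2, a ligase studied mostly in neurons, was higher in EC by an LFC of 0.44 (SE 0.14, adjusted p = 0.0359), at 10.04 ± 2.82 CPM against 7.48 ± 2.82 CPM in the control. Its call was lost without control replicate 2 or 3 or EC replicate 3 or 4 (adjusted p 0.0599 to 0.308) and in DESeq2 with the batch (adjusted p = 0.0818). In PG/VG vs. control 0 of the 7 passed in edgeR, with 1 at an unadjusted p under 0.05, beside 20.1% of all genes. DESeq2 and ComBat-Seq with DESeq2 each called 1 of the 7, beside 4.50% and 10.4% of all genes. Across the list, the median LFC was 0.059 in EC and 0.12 in PG/VG.

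Of the 8 genes for MondoA partners and glucose entry, 2 were higher in EC, as were 8.07% of all genes tested. SLC2A1, the main glucose transporter of many cultured cells, was at 258.8 ± 42.5 CPM in the control and 324 ± 84.2 CPM in EC (LFC 0.31, SE 0.068, adjusted p = 0.00411, higher in 3 of 3 batches). The call was lost without EC replicate 4 (adjusted p = 0.0649). MLXIPL, which encodes ChREBP, the relative of MondoA, was at 0.494 ± 0.214 CPM in the control and 1.25 ± 0.363 CPM in EC (LFC 1.32, SE 0.39, adjusted p = 0.0264). At this low level, its call was lost in 4 of 9 fits without a single library (without control replicate 2 or 3 or EC replicate 2 or 3, adjusted p 0.0967 to 0.160) and in DESeq2 with the batch (adjusted p = 0.0751). Its partner MLX had an LFC of −0.20 in EC that was not past the threshold (adjusted p = 0.103). In PG/VG vs. control 0 of the 8 passed in edgeR and in both other routes. An unadjusted p under 0.05 in edgeR was reached by 3 of the 8, beside 20.1% of all genes. For these 8 genes the median LFC was 0.11 in EC and 0.0078 in PG/VG, the latter turning to −0.0040 with RLE scaling.

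In EC vs. control the thioredoxin system, to which TXNIP binds, had 0 of 5 genes past the threshold in edgeR and both other routes. An unadjusted p under 0.05 in edgeR was reached by 0 of 5, beside 27.4% of all genes. In PG/VG the thioredoxin gene TXN was lower, at 196 ± 1.29 CPM against 241 ± 16.3 CPM in the control (LFC −0.30, SE 0.079, adjusted p = 0.0307, lower in 3 of 3 batches). This call was lost without control replicate 3 or 4 or PG/VG replicate 2 or 4 (adjusted p 0.0534 to 0.226), and in EC the LFC of TXN was −0.085 (adjusted p = 0.528). The median LFC of the 5 genes was 0.0088 in EC, or −0.0039 with RLE scaling, and −0.070 in PG/VG.

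The 8 ESCRT genes, whose proteins pinch off the vesicles that ARRDC1 starts, gave 0 calls in either treatment in edgeR and in DESeq2. In each treatment 1 had an unadjusted p under 0.05 in edgeR, beside 27.4% of all genes in EC and 20.1% in PG/VG. ComBat-Seq with DESeq2 gave 1 call in each, beside 19.2% and 10.4% of all genes. PDCD6IP, which encodes ALIX and was the most abundant of the 8 by CPM, was at 212 ± 4.41 CPM in the control, 223 ± 14.3 in PG/VG and 213 ± 11.9 in EC. HGS, which gathers ubiquitinated cargo on endosomes, was at 169 ± 13.8, 171 ± 10.1 and 154 ± 15.4 CPM. Their median LFC was −0.046 in EC and −0.016 in PG/VG, and both turned sign with library size as the only scaling (0.015 and 0.011).

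Among the cargo genes 8 of 10 were tested, of which 2 were higher in EC and 1 in PG/VG. Of all genes tested, 8.07% were higher in EC and 2.63% in PG/VG. ITGB4, integrin beta-4, which was called in both treatments, had a mean of 130.5 ± 12.8 CPM without treatment, of 177 ± 26.9 CPM with PG/VG and of 175 ± 36.1 CPM with EC. Its LFC was 0.40 in EC vs. control (SE 0.074, adjusted p = 0.000776) and 0.43 in PG/VG vs. control (SE 0.074, adjusted p = 0.00165), higher in 3 of 3 batches in both. This is a transcript level, whereas an arrestin acts on the protein. Over the 8 cargo genes the median LFC was 0.12 in EC and 0.16 in PG/VG.

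The 9 genes of FOXO factors and common FOXO targets all had an LFC above 0 in both treatments, except that 8 of 9 did in PG/VG with RLE scaling. Of the 9, 2 were called higher in EC and 1 in PG/VG, beside 8.07% and 2.63% of all genes tested. The median LFC of the 9 genes was 0.31 for EC and 0.23 for PG/VG, beside 0.0078 and 0.013 over all genes tested. CCNG2, a cyclin linked to cell cycle arrest, had a mean of 23.4 ± 6.20 CPM without treatment, of 31.2 ± 8.45 CPM with PG/VG and of 36.6 ± 6.08 CPM with EC. Its LFC was 0.66 in EC vs. control (SE 0.088, adjusted p = 3.57e-05) and 0.41 in PG/VG vs. control (SE 0.089, adjusted p = 0.00981), and without control replicate 3 or PG/VG replicate 4 the second call was lost (adjusted p 0.0928 and 0.0889). SESN1, a stress-induced inhibitor of mTORC1 signaling that p53 also induces, was higher in EC by an LFC of 0.55 (SE 0.098, adjusted p = 0.000571) in 3 of 3 batches, with 0.28 in PG/VG (adjusted p = 0.116). FOXO1 had an LFC of 0.31 in EC (adjusted p = 0.0939) and FOXO3 of 0.045 (adjusted p = 0.756). The genes of this list were chosen with results of these libraries known, so their common direction is a description.

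**Figure D5:**
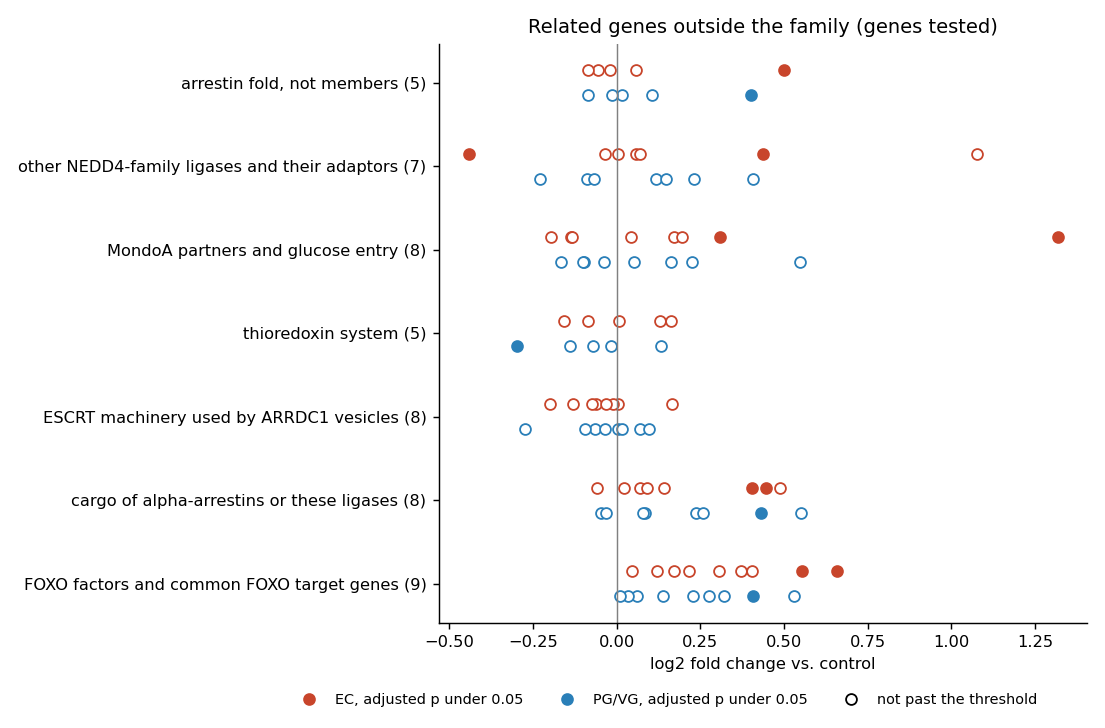
Log2 fold change vs. control of the 50 tested genes in the 7 lists, with EC in red and PG/VG in blue; filled circles passed the threshold, and the number tested stands beside each list. Filled circles are 9 for EC and 4 for PG/VG, and all 9 genes of the FOXO list lie to the right of 0 in both treatments (8 of 9 for PG/VG with RLE scaling).

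The genes most like ARRDC3 were sought over the 6 log2 differences of a treated library from the control of its batch, by the root-mean-square distance on the log2 scale. The 5 nearest were TLL2 (0.20), DISP3 (0.28), the lncRNA ENSG00000260077 (0.31), ZDHHC23 (0.34) and DLX3 (0.34), all with low counts, between 2 and 77 per library. No other gene of the 10 was close, and the nearest, WWP1, was at a distance of 1.39. For TXNIP the nearest genes were ZNF79 (0.049), SMOX (0.067), EPB41L4B (0.067), PCBP4 (0.071) and NRAV (0.073). The nearest to ARRDC4 were DCLRE1A (0.040), TBRG1 (0.060), PHF8 (0.069), EFNB2 (0.069) and DNAH14 (0.069). TXNIP and ARRDC4 were close to each other, at 0.077, which placed ARRDC4 at rank 7 of 16029 genes from TXNIP and TXNIP at rank 9 from ARRDC4, an observation made after these values were seen. All 6 differences share 3 control libraries, so the control of batch 4, the lowest library for both genes, enters 2 of them.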

How the data were processed

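Poly-A RNA of 9 BEAS-2B cultures, 3 per condition, was sequenced by the authors. The authors trimmed reads with fastp 0.23.4, aligned them with STAR 2.7.11b to GRCh38.p12 and counted them on exons of Ensembl release 111 with featureCounts (Subread 2.0.4), without reads that mapped to several places or fell on several genes, and deposited these raw counts per gene before batch adjustment, filtering and normalization. The strand setting is not given in the sources used here.

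Here, genes that reached 10 counts in 3 or more libraries were fitted in R 4.3.3 with edgeR 4.0.16 (TMM, robust quasi-likelihood fit of all 9 libraries, condition and batch as terms, Benjamini-Hochberg adjustment over the 16030 genes tested, threshold 0.05). All adjusted p values are from this test unless another tool is named. The SE of an LFC was approximated as its size over the root of the F statistic. Differences within a batch are of log2 CPM with a pseudocount of 0.5. The labels give the replicate number as the batch, which pairs the samples, and deviations of same-numbered libraries correlated at r = 0.301 to 0.683 over 9 pairs. Libraries of different number and condition correlated at r = −0.507 to 0.393 over 18 pairs, so the ranges overlap. Of the 9 libraries, 5 were closest to a library of their own number. No replicates were duplicates. Gene positions and exon lengths came from GENCODE release 44, in which 62666 of 63187 genes were found, and promoter sequences from RefSeq on GRCh38.p14.

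Alternatives were no replicate block, RLE or library-size scaling, a weaker and a stricter count filter, DESeq2 1.42.0 with the batch, ComBat-Seq of sva 3.50.0 followed by DESeq2 (the route of the authors), fits of 2 groups alone, a threshold of 0.01 and fits without any single library. The steps were tested on simulated data. The 10 genes, the 7 lists of related genes, written from general knowledge, and the motifs were chosen with earlier results of these data known. From each list, at most 4 genes past the threshold against the control were named, by smallest p, and otherwise the 2 of highest CPM. The values of 1 gene so chosen are not reported here. MLX, FOXO1 and FOXO3 were added after their values were seen. A protein motif search was not run.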

Additional observations from a re-analysis of the deposited data

Results flagged for a closer look

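TXNIP and ARRDC4 differed in direction between batches under the same contrast, with both treated libraries of batch 4 above the control of that batch and both treated libraries of batch 3 below theirs. For ARRDC4 the log2 differences in batch 4 were 0.28 in PG/VG and 0.21 in EC, and in batch 3 they were −0.14 in PG/VG and −0.27 in EC. For TXNIP they were 0.23 in PG/VG and 0.28 in EC in batch 4, and −0.018 in PG/VG and −0.34 in EC in batch 3. In both genes the 2 treated libraries of a batch are compared with the same control library. For TXNIP the PG/VG difference in batch 3 is the smallest of those given. The share of all genes with such a split was not counted, and the difference between batches was not tested.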

How the results depend on the processing

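ARRDC3 kept its direction in all 3 comparisons under each of 18 alternatives. Among them was the fit with no replicate block (LFC 1.74 in EC and 1.27 in PG/VG), which ignores the pairing by batch. The stricter threshold leaves the fit as it was and cannot turn a direction. The other alternatives use the same libraries that picked the gene, so the kept direction is a description and not a test. The number of the other 9 genes past the threshold stayed at 0 in PG/VG vs. control and in EC vs. PG/VG under all 18 alternatives, including no replicate block, a count that cannot fall. In EC vs. control it ranged from 0 to 1 with each library left out, the 1 being NEDD4L without EC replicate 3, and was 0 otherwise. In the batch comparison it was 3 in the model used, 3 to 4 with each library left out (ITCH joined without control replicate 2, NEDD4 without EC replicate 3) and 5 with library size as the only scaling, when NEDD4 and ITCH joined.

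The number of all genes called depended on the model. Without the replicate block, 16 genes passed for EC in place of 2157, 1 for PG/VG in place of 727 and 1 between the treatments in place of 137. ComBat-Seq with DESeq2 gave 1682 in PG/VG vs. control and 621 in EC vs. PG/VG, and fits of 2 groups alone gave 1241 and 316. A filter of at least 1 count gave 309 in EC vs. PG/VG, and an adjusted p under 0.01 gave 963, 226 and 45. Each library left out in turn gave 1162 to 2172, 192 to 1084 and 32 to 208. With 3 libraries per condition, the 95% intervals of the 9 genes besides ARRDC3 reach from −0.34 to 0.44 over the 3 comparisons, and an adjusted p above the threshold does not show that a gene did not differ.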
